A study of Mus musculus with 24 samples.

Results

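The liver libraries of mice fed 0.4 ppm selenium were compared with those of mice fed 0.1 ppm, 3 libraries on each side, in a series of 24 libraries from whole liver and whole brain at 4 dietary doses. All mice were male C57BL/6J, an inbred laboratory strain, that ate ordinary chow until 8 weeks of age and then for 5 weeks a diet labelled 0 ppm, 0.1 ppm, 0.4 ppm or 2.25 ppm selenium, and the labels report no gross pathology. Of 21894 genes in the deposited table, 18004 had a value of 1 or more in at least 3 of the 6 libraries and were tested. The values are normalized reads, the reads on a gene divided by a factor for the library, and libraries within a group are called a, b and c in the order of their columns, a name that pairs nothing. Nothing in the sources used here says whether the 3 libraries of a group came from separate cages or days, so the p-values speak of the spread among the 12 liver libraries fitted together, which may be technical.

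The 6 libraries held 13.77 M to 15.05 M reads on genes at 0.4 ppm, against 13.92 M to 14.63 M at 0.1 ppm, and a count of 3 reads was worth 3.84 to 4.40 normalized reads. Albumin (Alb), the main secreted protein of hepatocytes, averaged 1182900 ± 59863 normalized reads at 0.4 ppm and 1324400 ± 161717 at 0.1 ppm (SD, n = 3 each) in liver, and 0 to 57.3 in the 6 brain libraries of the same diets. The share of reads on genes of the mitochondrial genome was 4.89% to 5.30% at 0.4 ppm, against 5.71% to 6.28% at 0.1 ppm, with no overlap, and its part in the results below was not tested. Over the 24 libraries, every pair within a group differed by more than sampling noise.

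The liver stores and releases fuel under the control of insulin and glucagon. When insulin is low, the transcription factors FOXO1 and CREB and the coactivator PGC-1 alpha (Ppargc1a) turn on genes for making glucose. When insulin is high, FoxO proteins leave the nucleus, and SREBP-1c (Srebf1) drives the making of fatty acids. Selenium reaches liver proteins as selenocysteine, and several selenoprotein transcripts are degraded when the element is scarce, which makes them a gauge of the supply.

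At 0.4 ppm the liver held less RNA of the glucose production enzyme Pck1, of several regulators of that pathway and of some amino acid carriers. It held more RNA of the insulin-induced genes Angptl8, Mid1ip1 and Fasn. Other enzymes of glucose production, G6pc, Fbp1 and Pcx, did not pass the test given next. Of the 18004 genes, 286 (1.59%) had an adjusted p under 0.05 in limma (Benjamini-Hochberg over all genes tested). These called genes comprised 107 that rose (0.594% of genes tested) and 179 that fell (0.994%), and 28 of them were predicted or unnamed loci. Below, rose and fell mean called by limma unless another tool is named, and an unadjusted limma p under 0.05, reached by 16.4% of all genes, is no call. The median size of change among called genes was 0.70 on the log2(value + 1) scale, 81 changed by more than 1, and the median change of all genes was -0.01. In all 286 called genes the 3 libraries at 0.4 ppm did not overlap those at 0.1 ppm, but such a separation was common: the groups were apart in one direction or the other in 23.3% of all genes tested. For comparison, edgeR called 289 of the 18004 genes (120 higher, 169 lower) and DESeq2 called 626 (260 higher, 366 lower).

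**Figure D1:**
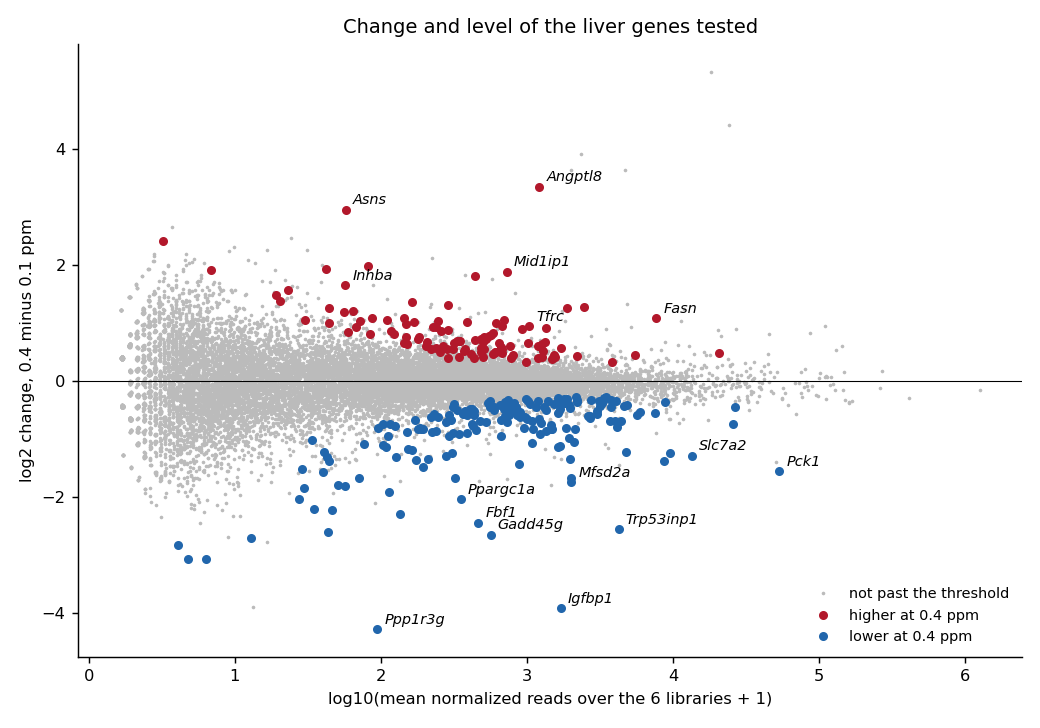
Each point is 1 of the 18004 genes tested in liver, with log10 of the mean normalized reads over the 6 libraries plus 1 on the x axis and the log2 change, 0.4 minus 0.1 ppm, on the y axis. Red points are the 107 genes that rose at 0.4 ppm, blue points the 179 that fell and grey points the rest. Igfbp1 and Ppp1r3g lie lowest among the labelled genes and Angptl8 highest, while the highest grey points are acute phase genes whose libraries scattered widely.

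The number of calls changed with the removal of single libraries. It was 44 without 0.4 ppm library b, 70 without 0.4 ppm library c, 130 without 0.4 ppm library a, 45 without 0.1 ppm library b and 89 without 0.1 ppm library a. It was 524 when 0 ppm library c, which takes part only in the estimate of spread, was left out, and 43 when the spread was not allowed to follow the mean level. Of the called genes described below, only Ppargc1a, Mfsd2a, Fads3, Slc7a2, Slc38a4, Ppm1k, Mid1ip1, Inhba, Slc16a6, Pde4a, S1pr1, Lad1, Klhdc8a, Irgq, Anks4b, Fbf1, Blm, Mknk2, H3f3b, Apol7a, Calcoco1, Hmcn2 and Rgs4 kept their call in that last fit. Robust moderation, which lets single genes depart from the shared spread, ended the calls of Pck1 (adjusted p = 0.0675), Igfbp1 (0.118), Irs2 (0.0611), Gpcpd1 (0.102), Slc38a2 (0.103), Asns (0.0607), Id2 (0.0566), Trp53inp1 (0.0871), Gadd45g (0.103), Hsd17b6 (0.106), Osgin1 (0.058), Usp18 (0.0542) and Ifit1 (0.0565). Quantile normalization ended those of Klf9, Fitm2, Ireb2, Gys2, Iigp1, Usp18 and Ifit1 (0.0503 to 0.0905), a pseudocount of 0.1 those of Usp18, Ifit1 and Cdh1 (0.0526 to 0.0562), the absence of a filter that of Cdh1 (0.0531), and edgeR that of Ireb2 (0.0531). A total of 35 genes, 13 that rose and 22 that fell, kept their call whichever of the 12 liver libraries was left out. Genes described below were picked by a rule on size, list and p. The named genes among these 35, and Tat, Fbp1, Pcx, Acaca, Acly, Scd1 and Saa1, were added after their values were seen.

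Ppargc1a, the coactivator that raises gluconeogenic transcription in the fasted liver, had 156, 120.4 and 133 normalized reads at 0.4 ppm, against 479.6, 654 and 562 at 0.1 ppm. Every 0.4 ppm library lay well below every 0.1 ppm library, and the gene fell by 2.04 on the log2 scale (SE 0.19, limma adjusted p = 0.000306). Foxo1, the insulin-restrained transcription factor of the same programme, had 961, 881 and 975 normalized reads at 0.4 ppm, against 1534, 1700.4 and 1437 at 0.1 ppm. Its groups were well apart, with a log2 change of -0.73 (SE 0.11, limma adjusted p = 0.00636). With any 1 of the 12 liver libraries left out, the adjusted p stayed between 4.29e-05 and 0.00389 for Ppargc1a and between 0.00099 and 0.0458 for Foxo1, though Foxo1 reached 0.0617 with no mean-variance trend.

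Pck1 encodes the cytosolic phosphoenolpyruvate carboxykinase, which commits carbon to glucose. It had 32492, 28564 and 20948 normalized reads at 0.4 ppm, against 81458, 80014 and 76661 at 0.1 ppm, the largest loss in absolute reads among the glucose genes described here. The log2 change was -1.56 (SE 0.28, limma adjusted p = 0.0178). Glucose-6-phosphatase, G6pc, which releases free glucose, had 7299, 6920.4 and 7780.2 normalized reads at 0.4 ppm, against 9992, 12321 and 9571 at 0.1 ppm, a difference outside the threshold (log2 change -0.53, SE 0.27, limma adjusted p = 0.359). The Pck1 call was lost without 0.1 ppm library a (adjusted p = 0.0645) or b (0.0828) and without 0.4 ppm library b (0.0656) or c (0.0879), over a range of 0.00298 to 0.0879 with 1 library left out.

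Ppp1r3g, a subunit that brings protein phosphatase 1 to glycogen, showed the largest fall of all called genes. It had 7.03, 5.12 and 12.2 normalized reads at 0.4 ppm, a few reads above the 3-read limit, against 247, 104 and 182 at 0.1 ppm, a log2 change of -4.28 (SE 0.66, limma adjusted p = 0.00813). Cebpb, a transcription factor of the fasting and acute phase responses, fell by 0.95 (limma adjusted p = 0.0107), and Foxo3, a relative of Foxo1, fell by 0.76 (limma adjusted p = 0.0131). Without 0.4 ppm library b the adjusted p was 0.0505 for Ppp1r3g and 0.0505 for Cebpb, and without 0.4 ppm library c it was 0.0518 for Cebpb. Foxo3 lost its call without 0.1 ppm library a (0.0538) or b (0.0516) and without 0.4 ppm library b (0.0646) or c (0.064).

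The gluconeogenesis list as a whole comprised 24 genes, all tested, of which 6 fell and none rose, against the 0.994% that fell among all genes. Its median log2 change was -0.60, beside -0.01 for all genes, and in 18 of the 24 the groups did not overlap (17 lower and 1 higher at 0.4 ppm), beside 23.3% of all genes. Tyrosine aminotransferase, Tat, had 25828, 29345 and 28790.5 normalized reads at 0.4 ppm, against 69532, 75630.2 and 77318 at 0.1 ppm, outside the limma threshold but called by DESeq2 (log2 change -1.41, SE 0.38, limma adjusted p = 0.083). The log2 change was 0.05 for fructose-bisphosphatase, Fbp1 (adjusted p = 0.865), and -0.08 for pyruvate carboxylase, Pcx (adjusted p = 0.681), and that of Fbp1 was -0.052 without 0.1 ppm library a. In bulk tissue, fewer cells of a type and less RNA per cell cannot be told apart.

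The promoters of 3 of these genes, Ppargc1a, Pck1 and Ppp1r3g, are shown because each holds the short core of the cAMP response element, the sequence that CREB recognises. The windows run from 250 bases before to 50 after the annotated start and come from RefSeq on GRCm38.p6, the assembly of mm10. They lie at chr5:51567676-51567975 on the minus strand, chr2:173152823-173153122 on the plus strand and chr13:35967656-35967955 on the plus strand. Capitals mark TGACG or its reverse complement CGTCA, and each window holds 1 match.
Ppargc1a: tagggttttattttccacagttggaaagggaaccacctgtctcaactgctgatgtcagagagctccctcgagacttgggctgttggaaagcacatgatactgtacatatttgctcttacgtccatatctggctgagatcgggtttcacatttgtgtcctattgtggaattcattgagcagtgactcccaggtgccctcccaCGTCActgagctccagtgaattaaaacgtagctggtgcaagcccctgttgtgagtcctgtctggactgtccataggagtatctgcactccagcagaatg
Pck1: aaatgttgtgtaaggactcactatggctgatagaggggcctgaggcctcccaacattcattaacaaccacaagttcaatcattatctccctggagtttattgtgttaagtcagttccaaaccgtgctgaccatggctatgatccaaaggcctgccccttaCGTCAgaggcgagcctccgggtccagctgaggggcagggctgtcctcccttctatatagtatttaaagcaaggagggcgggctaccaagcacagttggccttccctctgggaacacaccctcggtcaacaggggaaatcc
Ppp1r3g: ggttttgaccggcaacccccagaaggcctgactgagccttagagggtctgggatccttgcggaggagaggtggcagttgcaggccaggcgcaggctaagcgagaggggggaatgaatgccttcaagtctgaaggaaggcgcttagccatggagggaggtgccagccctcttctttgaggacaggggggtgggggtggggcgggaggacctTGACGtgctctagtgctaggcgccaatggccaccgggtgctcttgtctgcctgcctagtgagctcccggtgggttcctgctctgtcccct

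The first base of the match lay 49 bases before the RefSeq start in Ppargc1a, 90 in Pck1 and 40 in Ppp1r3g. The Ppp1r3g window lies inside the gene as GENCODE M21 places it, at chr13:35958839-35970388 on the plus strand, so its start differs between annotations. A match of 5 letters is common: TGACG, read on both strands, occurred in 20.8% of all 32851 RefSeq windows of this length and in 32.7% of the 12024 tested genes with a window. It occurred in 43.4% of the 129 genes that fell and have a window, and in 26.5% of the 83 that rose. The FoxO site TGTTTAC was in 8.53% of the genes that fell and 3.61% of those that rose, beside 3.25% of tested genes with a window. These shares describe letters in a window and were not tested.

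Genes that insulin or FoxO proteins control moved in both directions. Igfbp1, a secreted protein that binds insulin-like growth factors and is switched off by insulin, had 219, 123 and 254 normalized reads at 0.4 ppm, against 4968, 3039 and 1621 at 0.1 ppm. The lowest 0.1 ppm library was still well above the highest 0.4 ppm library, with a log2 change of -3.93 (SE 0.81, limma adjusted p = 0.0318). Angptl8, a secreted protein that insulin induces and that helps to inhibit lipoprotein lipase, had 2239, 2303 and 2057 normalized reads at 0.4 ppm, against 185, 142 and 372 at 0.1 ppm. This was the largest rise among called genes, 3.36 on the log2 scale (SE 0.50, limma adjusted p = 0.00636), and a 9.45-fold ratio of means.

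Irs2, the insulin receptor substrate that FoxO proteins induce, had 226, 188 and 127 normalized reads at 0.4 ppm, against 586, 325 and 387 at 0.1 ppm (log2 change -1.25, SE 0.25, limma adjusted p = 0.0293). Klf9, a transcription factor induced by glucocorticoids, fell by 0.55 (limma adjusted p = 0.0394). Of the 28 genes in the list of insulin signalling and FoxO targets, 6 fell (Igfbp1, Irs2, Klf9, Foxo1, Foxo3 and Ppp1r3g) and 1 rose (Angptl8), against 0.994% and 0.594% of all genes, with a median log2 change of -0.21. Foxo1, Foxo3 and Ppp1r3g are counted in the gluconeogenesis list as well. The Angptl8 call held without any 1 library (adjusted p 0.000316 to 0.0447) but not with no mean-variance trend (0.0703). The Igfbp1 call was lost without 0.1 ppm library a (0.116) or b (0.117) and without 0.4 ppm library a (0.0788), b (0.133) or c (0.0893). Irs2 lost its call without 0.1 ppm library a (0.109) or b (0.0583) and without 0.4 ppm library b (0.1) or c (0.122), and Klf9 without any 1 of 0.1 ppm a or b, 0.4 ppm a, b or c and 2.25 ppm a or b, with a highest value of 0.167.

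The Igfbp1 promoter is shown because it holds the core of the insulin response element, which was searched for after the sequence had been read. The window lies at chr11:7197537-7197836 on the plus strand of GRCm38.p6, from RefSeq, and capitals mark CAAAACA, whose first base is 108 bases before the start.
Igfbp1: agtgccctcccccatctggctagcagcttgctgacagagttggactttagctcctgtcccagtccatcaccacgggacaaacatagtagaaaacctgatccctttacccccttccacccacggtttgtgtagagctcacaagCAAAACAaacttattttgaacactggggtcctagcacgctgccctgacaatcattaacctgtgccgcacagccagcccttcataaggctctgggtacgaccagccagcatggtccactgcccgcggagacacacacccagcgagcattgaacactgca
CAAAACA, on either strand, was in 6.28% of all windows and in 5.43% of the genes that fell, beside 5.50% of tested genes with a window.

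**Figure D2:**
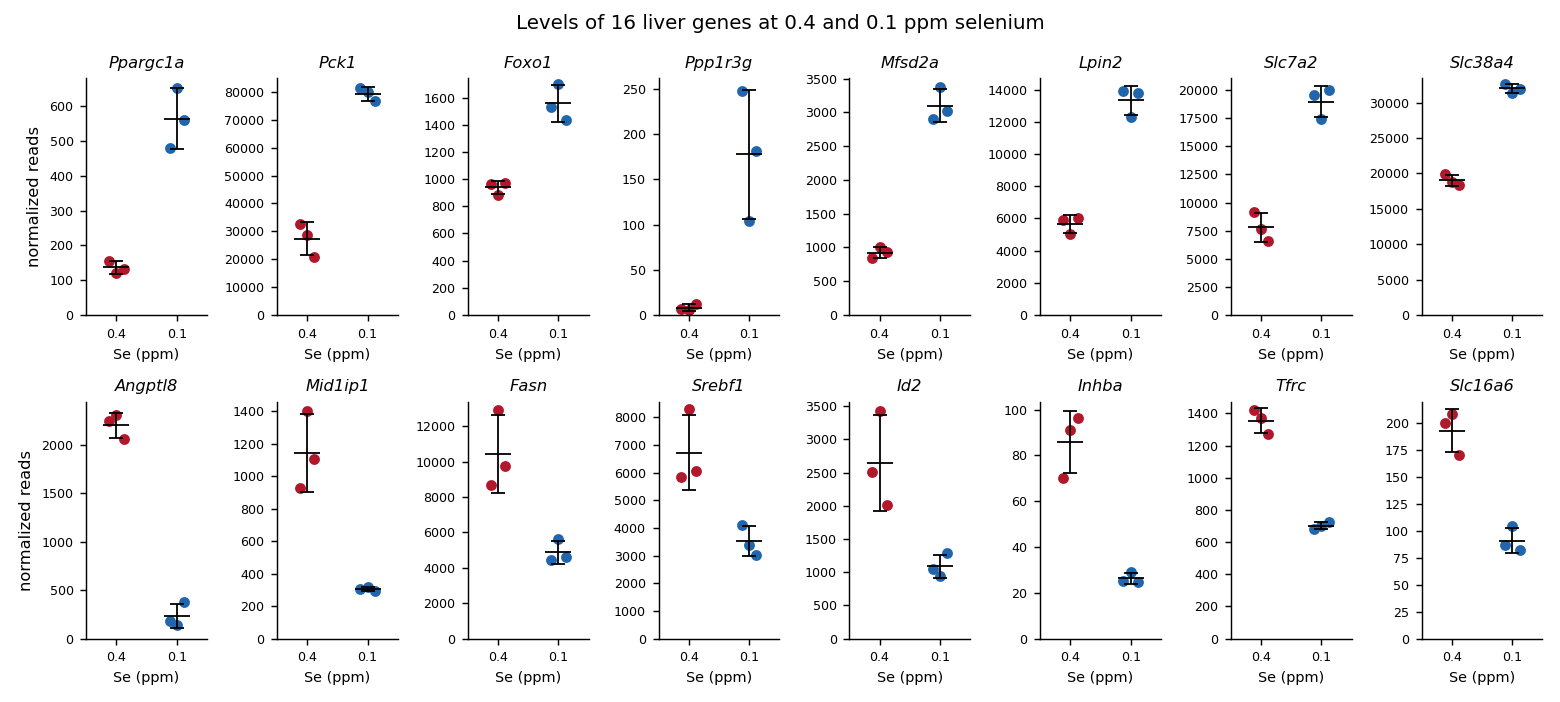
Normalized reads of 16 liver genes, with the 3 libraries at 0.4 ppm in red on the left and those at 0.1 ppm in blue on the right of each panel, and black bars for the mean and SD. The top row shows 8 genes that fell at 0.4 ppm, and in the bottom row 7 genes rose while Srebf1 (adjusted p = 0.0538) did not pass the limma test. In each panel the red and blue points do not overlap.

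Fatty acid synthesis genes included 2 that rose. Mid1ip1, which promotes the polymerisation and activity of acetyl-CoA carboxylase, had 927, 1399 and 1104 normalized reads at 0.4 ppm, against 303, 316 and 293 at 0.1 ppm. The 0.1 ppm libraries were nearly equal and all 0.4 ppm libraries lay far above them, with a log2 change of 1.89 (SE 0.19, limma adjusted p = 0.000411). Fasn, the fatty acid synthase, had 8693, 12936 and 9747 normalized reads at 0.4 ppm, against 4432, 5632 and 4590.2 at 0.1 ppm. The groups did not overlap and the log2 change was 1.09 (SE 0.17, limma adjusted p = 0.0101).

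Srebf1, which encodes the lipogenic transcription factor SREBP-1, had 5841, 8284 and 6059.9 normalized reads at 0.4 ppm, against 4115, 3401 and 3039 at 0.1 ppm, and stayed just outside the threshold (log2 change 0.93, SE 0.22, limma adjusted p = 0.0538). Other enzymes of the pathway did not pass the test: Acaca had a log2 change of 0.15 (adjusted p = 0.76), Acly 0.28 (0.53) and Scd1 -0.36 (0.511). Of the 26 genes of the list 2 rose and none fell, against 0.594% and 0.994% of all genes, and the median log2 change was 0.10. In limma 10 had an unadjusted p under 0.05, beside 16.4% of all genes. The groups did not overlap in 10 higher and 2 lower genes, beside 23.3% of all genes. DESeq2 called 5 of the list, all higher, Srebf1 among them, beside 260 higher of all 18004 genes. Mid1ip1 kept its call without any 1 library (adjusted p 9.92e-05 to 0.00452), and Fasn lost its own without 0.4 ppm library b (0.0544, in a range from 0.00407) and with no mean-variance trend (0.0765).

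The Fasn promoter is shown for its CCAAT boxes, the sequence that the factor NF-Y binds beside SREBP in lipogenic promoters. The window lies at chr11:120824498-120824797 on the minus strand of GRCm38.p6, from RefSeq, and capitals mark CCAAT or its reverse complement ATTGG.
Fasn: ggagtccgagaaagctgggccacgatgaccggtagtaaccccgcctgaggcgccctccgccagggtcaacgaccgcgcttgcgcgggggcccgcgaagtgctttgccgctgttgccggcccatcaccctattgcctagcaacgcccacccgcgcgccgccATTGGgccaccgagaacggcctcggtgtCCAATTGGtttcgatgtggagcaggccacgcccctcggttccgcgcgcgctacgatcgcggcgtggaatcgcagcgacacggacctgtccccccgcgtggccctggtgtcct
It holds 3 matches, whose first bases lie 90, 62 and 59 bases before the start, the second and the third overlapping. The box was in 37.4% of all windows, in 58.1% of the genes that fell and in 36.1% of those that rose, beside 42.3% of tested genes with a window. The SREBP site TCACNCCAC, also searched for, was in none of the 83 genes that rose and have a window, Fasn included. It was in 1.49% of tested genes with a window.

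Several genes of lipid handling fell. Mfsd2a, a membrane transporter of lysophosphatidylcholine that fasting induces in mouse liver, had 839.6, 1001 and 927 normalized reads at 0.4 ppm, against 2901, 3376 and 3025 at 0.1 ppm. It had the smallest p of all genes tested, with tight groups and a log2 change of -1.75 (SE 0.14, limma adjusted p = 0.000135). Lpin2, a phosphatidate phosphatase of triglyceride and phospholipid synthesis, had 5911, 5036 and 6045 normalized reads at 0.4 ppm, against 13919, 12318 and 13804 at 0.1 ppm. Its log2 change was -1.24 (SE 0.19, limma adjusted p = 0.0068).

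Gpcpd1, which splits glycerophosphocholine, fell by 1.39 (limma adjusted p = 0.0293), and Fitm2, a protein of lipid droplet formation, fell by 0.38 (limma adjusted p = 0.0406). These were the 4 genes that fell among 25 tested in the list of lipid droplets, lipases and phosphatidates (0.994% of all genes fell), in which none rose and the median log2 change was -0.18. Pank1, which makes coenzyme A, fell by 0.43 (limma adjusted p = 0.00733) and Slc22a5, the carnitine importer, fell by 0.62 (limma adjusted p = 0.01). Fads3, a member of the fatty acid desaturase family, had 162, 136 and 145 normalized reads at 0.4 ppm, against 436, 708 and 340.2 at 0.1 ppm, and fell by 1.67 (limma adjusted p = 0.00181). Mfsd2a (adjusted p 7.5e-06 to 0.00267), Lpin2 (0.000189 to 0.0473), Pank1, Slc22a5 and Fads3 kept their calls without any 1 library, but with no mean-variance trend Lpin2 reached 0.0703, Pank1 0.0617 and Slc22a5 0.0714. Gpcpd1 lost its call without 0.1 ppm library a (0.0953) or b (0.117) and without 0.4 ppm library b (0.111) or c (0.125), and Fitm2 without any 1 of the 6 libraries compared or 2.25 ppm library a, up to 0.164.

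None of the 41 tested genes of fatty acid oxidation and the PPAR alpha programme passed the limma test. In it 17 had an unadjusted p under 0.05 (16.4% of all genes did). Of the 41, edgeR called 1 and DESeq2 called 4, all lower, beside 169 and 366 lower calls among all 18004 genes. The median log2 change of the list was -0.27. In 23 of the 41 the groups did not overlap, all lower at 0.4 ppm, beside 23.3% of all genes in either direction. Fgf21, the fasting hormone that PPAR alpha induces, was low and scattered, with 22.5, 20.5 and 8.13 normalized reads at 0.4 ppm, against 6.99, 23.6 and 52.8 at 0.1 ppm (log2 change -0.40, SE 0.60, limma adjusted p = 0.801). Its direction turned without 0.1 ppm library c (0.25) or without 0.4 ppm library c (0.034).

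**Figure D3:**
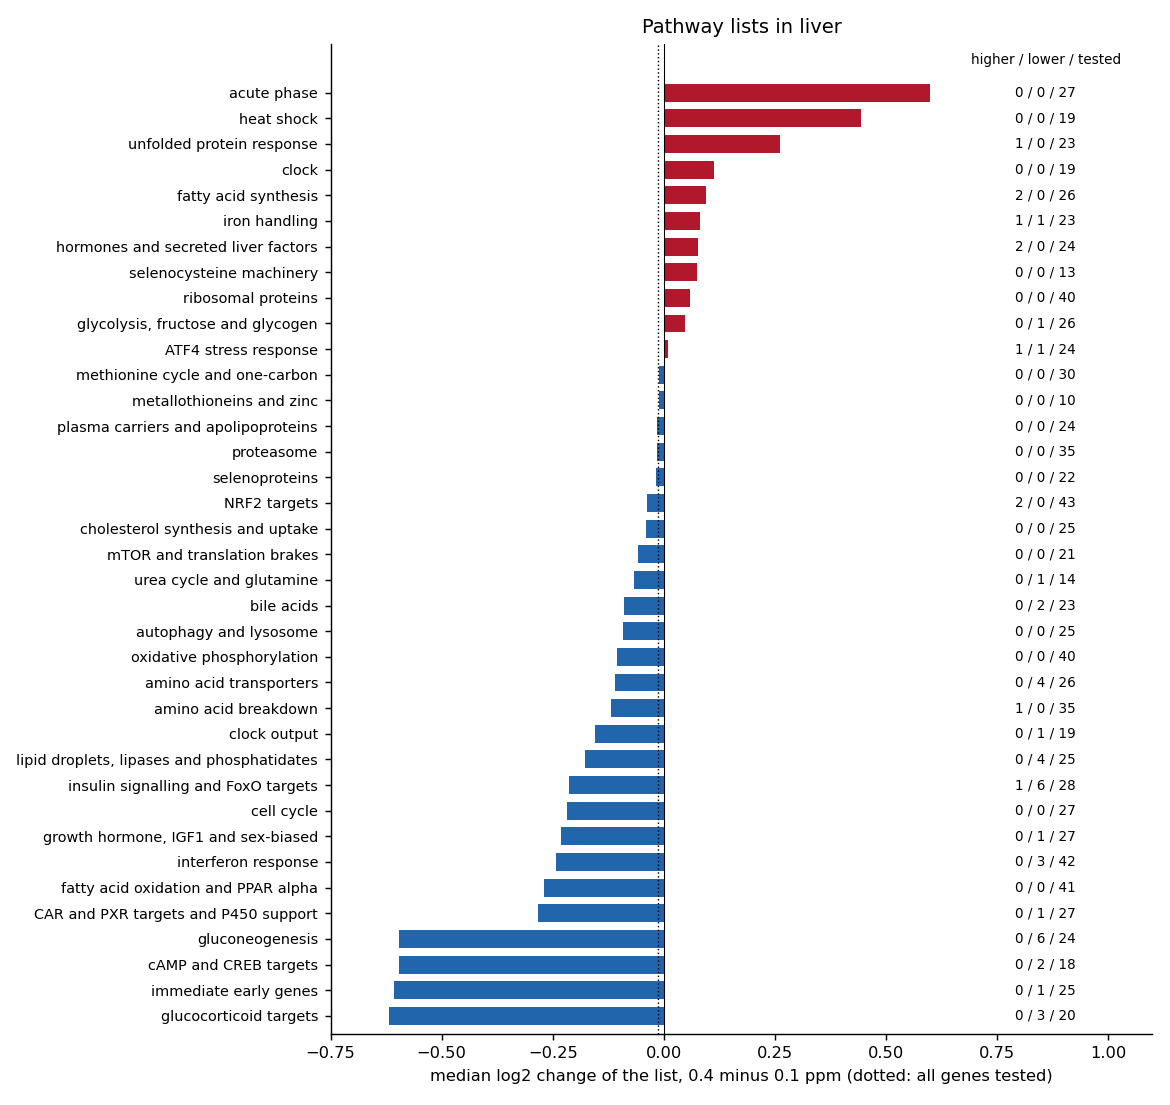
Median log2 change, 0.4 minus 0.1 ppm, of each of 37 pathway lists in liver, red above 0 and blue below, with the dotted line at the median of all genes tested (-0.01). The numbers at the right give how many genes of the list rose, how many fell and how many were tested. Gluconeogenesis, cAMP targets, immediate early genes and glucocorticoid targets have medians near -0.6, and the acute phase list has the highest median, 0.60, with no gene past the threshold. Gluconeogenesis and cAMP targets share Pck1 and Ppargc1a, and immediate early genes and glucocorticoid targets share Gadd45g, so the medians are not independent.

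Among amino acid carriers of the plasma membrane and the mitochondrion, 4 fell. Slc7a2, which carries arginine, lysine and ornithine into hepatocytes, had 9178, 7637 and 6614 normalized reads at 0.4 ppm, against 19546, 17417 and 19983 at 0.1 ppm. Its log2 change was -1.29 (SE 0.14, limma adjusted p = 0.000856). Slc38a4, a carrier of neutral amino acids, had 19945, 18809.9 and 18371 normalized reads at 0.4 ppm, against 32718, 31448 and 31920.5 at 0.1 ppm. Its libraries were close together within each group, and the log2 change was -0.75 (SE 0.08, limma adjusted p = 0.000856).

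Slc38a2, a related carrier that amino acid shortage induces, had 2592, 2850.1 and 2751 normalized reads at 0.4 ppm, against 9559.6, 6829.5 and 4005 at 0.1 ppm, so that the scatter lay in the 0.1 ppm group (log2 change -1.23, SE 0.25, limma adjusted p = 0.0315). Slc25a22, the mitochondrial glutamate carrier, fell by 0.69 (limma adjusted p = 0.0342). Among 26 tested amino acid transporters these 4 fell and none rose, against 0.994% and 0.594% of all genes, and the median log2 change was -0.11. Slc7a2 (adjusted p 0.000256 to 0.0105) and Slc38a4 (0.000425 to 0.0105) kept their calls without any 1 library. Slc38a2 lost its call without 0.1 ppm library a (0.104) or b (0.121) and without 0.4 ppm library a (0.0907), b (0.111) or c (0.11), and Slc25a22 without any 1 of the 6 libraries compared, up to 0.139.

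Asns, which makes asparagine from aspartate and glutamine and is a target of ATF4, had 160.3, 74.3 and 62.4 normalized reads at 0.4 ppm, against 16.8, 2.78 and 23.5 at 0.1 ppm. The gene rose by 2.96 on the log2 scale (SE 0.61, limma adjusted p = 0.0314), and 0.1 ppm library b lay under its 3-read limit of 4.16 normalized reads. In the ATF4 list of 24 genes, Asns was the only one that rose and Cebpb the only one that fell (0.594% and 0.994% of all genes did), with a median log2 change of 0.01. Azin1, which stabilises ornithine decarboxylase in polyamine synthesis, fell by 0.57 (limma adjusted p = 0.00559), and Ppm1k, the phosphatase that activates the breakdown of branched-chain amino acids, fell by 0.83 (limma adjusted p = 0.00181), and both kept their calls without any 1 library. Asns lost its call without 0.1 ppm library a (0.0592) or b (0.0911) and without 0.4 ppm library a (0.104), b (0.1) or c (0.0755), in a range from 0.0202.

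Iron genes showed 1 rise and 1 fall among 23 tested, against 0.594% and 0.994% of all genes. Tfrc, the transferrin receptor that takes up iron, had 1423, 1370.0 and 1272 normalized reads at 0.4 ppm, against 678, 701 and 723 at 0.1 ppm. Both groups were tight, and the gene rose by 0.95 on the log2 scale (SE 0.14, limma adjusted p = 0.00558), a 1.93-fold ratio of means. Ireb2, one of the proteins that bind iron-responsive elements and stabilise the Tfrc transcript, had 1975, 1837 and 1925 normalized reads at 0.4 ppm, against 2623, 2639 and 2173 at 0.1 ppm (log2 change -0.37, SE 0.08, limma adjusted p = 0.042). The Tfrc call held without any 1 library (0.000347 to 0.0355) but reached 0.0579 with no mean-variance trend. Ireb2 was not called by edgeR (0.0531) and lost its call with quantile normalization (0.0905), with no mean-variance trend (0.143), and without 0.1 ppm library a (0.131) or b (0.175), 0.4 ppm library a (0.0886), b (0.166) or c (0.128), 0 ppm library a (0.0515) or 2.25 ppm library b (0.0545).

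Further genes rose without belonging to those groups. Inhba, which encodes the subunit of activin A, had 70.3, 90.9 and 96.3 normalized reads at 0.4 ppm, against 25.2, 29.2 and 24.9 at 0.1 ppm (log2 change 1.65, SE 0.21, limma adjusted p = 0.00181). Slc16a6, shown in zebrafish to export ketone bodies from the liver, had 199.7, 209 and 171 normalized reads at 0.4 ppm, against 86.7, 104 and 82.1 at 0.1 ppm (log2 change 1.08, SE 0.16, limma adjusted p = 0.00559). Pde4a, which breaks down cAMP, rose by 1.05 (limma adjusted p = 0.00689), and S1pr1, a receptor for sphingosine-1-phosphate, rose by 0.90 (limma adjusted p = 0.00181). All 4 kept their calls without any 1 library, as did Lad1, with a 2.51-fold ratio of means, and Klhdc8a (1.93), Shroom1 (1.05), Irgq (0.73) and Anks4b (0.63), for which the log2 change stands in parentheses. Id2, an inhibitor of helix-loop-helix transcription factors, had 2502, 3435 and 2009 normalized reads at 0.4 ppm, against 1042, 937 and 1283 at 0.1 ppm, and rose by 1.26 (limma adjusted p = 0.0146), a call lost without 0.1 ppm library a (0.0551) or b (0.083) or 0.4 ppm library b (0.0716).

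Other genes fell steeply. Trp53inp1, a p53-induced protein of autophagy and stress, had 996, 1147 and 1315 normalized reads at 0.4 ppm, against 11333, 6438 and 4202 at 0.1 ppm (log2 change -2.56, SE 0.47, limma adjusted p = 0.0198). Gadd45g, a stress and growth arrest gene, had 132, 227 and 106 normalized reads at 0.4 ppm, against 1142, 1170.2 and 598 at 0.1 ppm (log2 change -2.65, SE 0.53, limma adjusted p = 0.0278). In both genes 0.1 ppm library c was the lowest of its group. Fbf1, a protein of the centriole's distal appendages, had 131, 155 and 137 normalized reads at 0.4 ppm, against 729.9, 1002 and 631 at 0.1 ppm (log2 change -2.45, SE 0.23, limma adjusted p = 0.000306). Fbf1 kept its call without any 1 library (2.52e-05 to 0.00389), as did Blm, a DNA helicase (log2 change -1.49), Mknk2, a kinase of the translation factor eIF4E (-0.79), H3f3b, a gene for histone H3.3 (-0.70), Apol7a (-0.60), Calcoco1 (-0.57) and Pcmtd2 (-0.53).

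The calls of the other steep falls were lost under the removal of any 1 of several libraries. Trp53inp1 lost its own without 0.1 ppm library a (0.0839) or b (0.083) and without 0.4 ppm library a (0.067), b (0.0813) or c (0.0689). Gadd45g lost its own without 0.1 ppm library a (0.099) or b (0.117) and without 0.4 ppm library a (0.08), b (0.0592) or c (0.114). In the glucocorticoid list, Gadd45g, Igfbp1 and Klf9 fell among 20 tested genes (0.994% of all genes did), none rose, and the median log2 change was -0.62. Igfbp1 and Klf9 are counted in the insulin list as well. In the cAMP and CREB list, Pck1 and Ppargc1a, both also in the gluconeogenesis list, fell among 18 tested genes (0.994% of all genes did), with a median of -0.60. In the list of immediate early genes, 25 tested, limma called Gadd45g alone, which fell, as 0.994% of all genes did. With edgeR, Btg2 and Gadd45g were called, both lower, beside 169 lower of all 18004 genes. DESeq2 called 3 lower and 1 higher, beside 366 lower and 260 higher of all 18004 genes. The median limma log2 change of the list was -0.61.

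Of 22 selenoprotein transcripts tested, none passed the limma or the edgeR test. DESeq2 called only Selenoo of the 22, beside 626 of all 18004 genes. In limma 5 of the 22 had an unadjusted p under 0.05, which 16.4% of all genes had. The median log2 change was -0.02, and Dio2 and Selenov stayed below the filter. Gpx1, the cytosolic glutathione peroxidase, had 27285, 25990.2 and 29805 normalized reads at 0.4 ppm, against 26811, 25798 and 28308 at 0.1 ppm (log2 change 0.04, SE 0.09, limma adjusted p = 0.884), and the change was -0.017 without 0.4 ppm library c. Selenop, the plasma carrier of selenium, had 159245, 147630.0 and 162197 normalized reads at 0.4 ppm, against 125394, 152329 and 144094 at 0.1 ppm (0.16, SE 0.13, limma adjusted p = 0.595). Selenow, a small thioredoxin-like selenoprotein, had 1198, 1268 and 1209 normalized reads at 0.4 ppm, against 1081, 1031 and 1096 at 0.1 ppm, with no overlap but a log2 change of only 0.20 (SE 0.08, limma adjusted p = 0.257).

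Among the other abundant selenoproteins, the log2 change was -0.16 for Sephs2, which makes the selenium donor, -0.07 for Msrb1, a methionine sulfoxide reductase, 0.07 for the deiodinase Dio1 and 0.01 for the phospholipid hydroperoxide peroxidase Gpx4, with standard errors of 0.07 to 0.11. Selenoo, a mitochondrial pseudokinase, had the smallest p of the 22, with 779, 739 and 649 normalized reads at 0.4 ppm, against 860, 1023 and 924 at 0.1 ppm (log2 change -0.37, SE 0.10, limma adjusted p = 0.0793). In the list of the selenocysteine machinery none of 13 passed in limma, edgeR or DESeq2, and 1 had an unadjusted p under 0.05 in limma (16.4% of all genes). Of 43 NRF2 targets 2 rose and none fell, against 0.594% and 0.994% of all genes, with a median log2 change of -0.04, 24 below 0, and groups that did not overlap in 4 higher and 9 lower genes, beside 23.3% of all genes. Osgin1, an oxidative stress growth inhibitor, rose by 1.27 (limma adjusted p = 0.0148), and Gstp1, a glutathione transferase, rose by 0.49 (limma adjusted p = 0.044). Osgin1 lost its call without 0.1 ppm library a (0.0538) or b (0.0836), and Gstp1 without any 1 of the 6 libraries compared or 2.25 ppm library a or b, up to 0.146.

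Groups of genes that vary with the time of day, inflammation or stress were described beside these results. None of 19 core clock genes passed the limma or the edgeR test. DESeq2 called Arntl alone of the 19, beside 626 of all 18004 genes. In limma 7 of the 19 had an unadjusted p under 0.05, against 16.4% of all genes. The groups did not overlap in 2 higher and 6 lower of the 19, beside 23.3% of all genes. Arntl, the clock activator BMAL1, had 81.6, 119 and 207 normalized reads at 0.4 ppm, against 33.6, 38.9 and 46.9 at 0.1 ppm (log2 change 1.66, SE 0.48, limma adjusted p = 0.0995). Its target Dbp had 879, 566 and 344 normalized reads at 0.4 ppm, against 1363, 1056 and 836 at 0.1 ppm, with 1 library overlapping (-0.94, SE 0.46, limma adjusted p = 0.341). In the clock output list 1 of 19 fell (0.994% of all genes did), the liver glycogen synthase Gys2 (-0.59, limma adjusted p = 0.0383), a call lost without any 1 of the 6 libraries compared or 2.25 ppm library a, up to 0.159. Times of collection and of the last meal are not given in the sources used here, and the part of the clock in the results was not tested.

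The acute phase list had the highest median log2 change of the 37 pathway lists, 0.60. None of its 27 genes passed the limma or edgeR threshold, and 11 had an unadjusted p under 0.05 in limma (16.4% of all genes). DESeq2 called 2, C3 higher and Il1r1 lower, beside 260 higher and 366 lower of all 18004 genes. The groups did not overlap in 11 (10 higher and 1 lower at 0.4 ppm), beside 23.3% of all genes. Serum amyloid A1 (Saa1) had 31140.3, 18531 and 84028 normalized reads at 0.4 ppm, against 9091, 769 and 699.5 at 0.1 ppm, a 12.7-fold ratio of means with a spread too wide to pass (log2 change 4.42, SE 1.53, limma adjusted p = 0.16). Markers of neutrophils and monocytes, 9 tested of 11, had a median log2 change of 0.97 with 8 of 9 above 0, and erythroid markers, 8 tested of 9, a median of 0.38 with 7 of 8 above 0, against 48.1% of all genes above 0. The neutrophil and monocyte markers summed to between 1315 and 2019 normalized reads at 0.4 ppm, against 1286 to 1691 at 0.1 ppm, and the erythroid markers to between 4032 and 5805, against 3989 to 4481. Saa1 and both sums were highest in 0.4 ppm library c, no gene of either list was called by limma, edgeR or DESeq2, and their part in the acute phase values was not tested. None of 19 heat shock genes passed in limma, edgeR or DESeq2, 8 had an unadjusted p under 0.05 in limma (16.4% of all genes did), and the median log2 change was 0.44. Of 23 genes of the unfolded protein response 21 had a log2 change above 0, against 48.1% of all genes, with a median of 0.26. The groups did not overlap in 6, all higher at 0.4 ppm, beside 23.3% of all genes. In limma 7 had an unadjusted p under 0.05 (16.4% of all genes did). Only 1 of the 23 rose, against 0.594% of all genes. This was Ern1, its sensor IRE1, which rose by 0.57 (limma adjusted p = 0.0342). Its call was lost without any 1 of the 0.1 ppm libraries or without 0.4 ppm library b or c, up to 0.137. Of 42 interferon genes, Iigp1, Usp18 and Ifit1 fell (0.994% of all genes did), with a median of -0.24 for the list, and each lost its call under the removal of at least 7 of the 12 single libraries, up to 0.186.

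Markers of the cell types that whole liver holds were summed per library. Pericentral hepatocyte markers, 16 of 16 tested, summed to between 222453 and 238199 normalized reads at 0.4 ppm, against 250771 to 304250.4 at 0.1 ppm, and periportal markers, also 16 of 16, to between 278327 and 283246, against 311609 to 360188. Both sums were lower in every 0.4 ppm library. The periportal sum includes Pck1, which had 20948 to 32492 normalized reads at 0.4 ppm, against 76661 to 81458 at 0.1 ppm. That gene made up most of the difference in the periportal sum. Of the 16 periportal genes Pck1 and Hsd17b6 fell while Cdh1 rose, against 0.994% and 0.594% of all genes, and the median log2 change was -0.07. Hsd17b6 lost its call without 0.1 ppm library b or c or any 0.4 ppm library (up to 0.123), and Cdh1 without 10 of the 12 liver libraries (up to 0.181). Kupffer and macrophage markers, 12 of 12 tested, summed to between 13747 and 17134 at 0.4 ppm, against 12062 to 13390 at 0.1 ppm. This sum was higher in every 0.4 ppm library. Of the 12 markers, 10 had a log2 change above 0, against 48.1% of all genes. The groups did not overlap in 5, all higher, beside 23.3% of all genes. No gene of the list was called by limma, edgeR or DESeq2, and 3 had an unadjusted p under 0.05 in limma (16.4% of all genes). Sums for hepatocyte, endothelial, stellate, bile duct, lymphocyte, neutrophil, erythroid and adipocyte markers overlapped between the groups, none of their genes was called in limma or edgeR (DESeq2 called the hepatocyte marker Tat), and the defining muscle genes Ckm, Acta1 and Myh1 were at 0 in all 6 libraries. Gut markers, 3 tested of 7, summed to between 812 and 1104 at 0.4 ppm, against 1275 to 1632 at 0.1 ppm, with Sis at 0 in all 6. Pancreatic markers were highest in 0.4 ppm library a, at 883 normalized reads, against 157 to 278 in the other 5. The part of cell makeup in the results was not tested.

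The other diets place the 2 doses in a series, and since all comparisons share libraries their values are given side by side only. Ppargc1a averaged 167 ± 42.0 normalized reads at 0 ppm, 565 ± 87.2 at 0.1 ppm and 136 ± 18.1 at 0.4 ppm (SD, n = 3 each), with 171, 124 and 158 in the libraries at 2.25 ppm. The 0.1 ppm group was thus the high one, above 0 ppm (log2 change -1.77 for 0 minus 0.1 ppm, limma adjusted p = 0.000282) and above 2.25 ppm (-1.90 for 2.25 minus 0.1 ppm, adjusted p = 0.000137). Mfsd2a was also highest at 0.1 ppm, with 717 ± 93.7 at 0 ppm, 3101 ± 246 at 0.1 ppm, 923 ± 80.9 at 0.4 ppm and 605 ± 143 at 2.25 ppm. Its log2 change was -2.12 for 0 minus 0.1 ppm (adjusted p = 3.88e-06) and -2.38 for 2.25 minus 0.1 ppm (adjusted p = 2.54e-06). For 0 minus 0.1 ppm the log2 change was -0.73 in Foxo1, -1.14 in Lpin2, -1.48 in Slc7a2, -0.62 in Slc38a4 and -1.92 in Fbf1, with limma adjusted p from 0.000107 to 0.00288.

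Angptl8 and Tfrc did not peak at 0.1 ppm. Angptl8 averaged 273 ± 90.8 normalized reads at 0 ppm, 233 ± 123 at 0.1 ppm, 2199.6 ± 128 at 0.4 ppm and 2249 ± 2213 at 2.25 ppm, where library a stood at 4804 and the other 2 at 974 and 968. The log2 change was 0.31 for 0 minus 0.1 ppm (limma adjusted p = 0.798) and -3.05 for 0 minus 0.4 ppm (adjusted p = 0.00518). Tfrc had 735, 694 and 487 normalized reads at 0 ppm and 1222, 1623 and 1437 at 2.25 ppm, a log2 change of -0.16 for 0 minus 0.1 ppm (adjusted p = 0.582) and of 0.07 for 2.25 minus 0.4 ppm (adjusted p = 0.897). Fasn had 20659.9, 33769 and 28906 normalized reads at 2.25 ppm and was 1 of only 10 genes (0.0555%) called for 2.25 minus 0.4 ppm in limma (log2 change 1.40, adjusted p = 0.0162). Gpx1 had 9649, 11640.1 and 10201 normalized reads at 0 ppm, with a log2 change of -1.36 for 0 minus 0.1 ppm (adjusted p = 3.88e-06) and 0.04 for 2.25 minus 0.4 ppm (adjusted p = 0.915). Over all genes, limma called 1184 (6.58%) for 0 minus 0.1 ppm and 1533 (8.51%) for 2.25 minus 0.1 ppm.

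**Figure D4:**
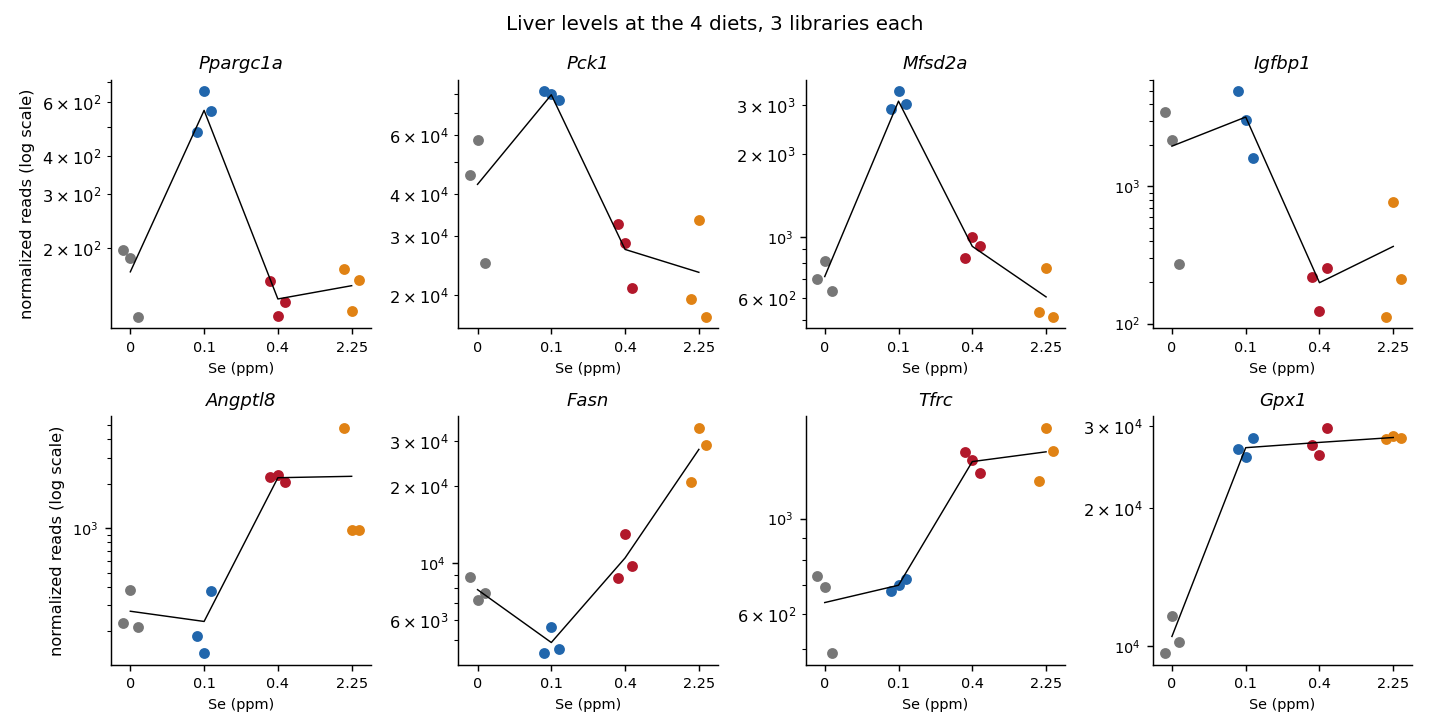
Normalized reads on a log scale for 8 liver genes at 0, 0.1, 0.4 and 2.25 ppm selenium, with 3 libraries a diet as points and their means joined by a line. Ppargc1a, Pck1 and Mfsd2a peak at 0.1 ppm, Angptl8 and Tfrc step up between 0.1 and 0.4 ppm, Fasn is highest at 2.25 ppm, and Gpx1 is low at 0 ppm.

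The same step of diet was compared in brain, where limma called 2 of 20762 genes (0.00963%) and 1690 had an unadjusted p under 0.05. For 16982 genes tested in both tissues, the change in liver minus the change in brain passed the limma threshold in 134 (0.789%), and 95 of them were among the 268 liver calls tested in both. That difference contains the liver change itself, so the overlap with the liver calls is not independent of them. Mfsd2a had 397, 457 and 470.3 normalized reads in brain at 0.4 ppm, against 325, 405 and 394 at 0.1 ppm, and its liver minus brain difference in log2 change was -1.99 (SE 0.20, adjusted p = 2.46e-05). Ppargc1a had 711, 644 and 784 normalized reads in brain at 0.4 ppm, against 724, 784 and 756 at 0.1 ppm, with a difference of -1.95 (SE 0.22, adjusted p = 5.4e-05). Mid1ip1 differed by 1.86 (SE 0.22, adjusted p = 0.000127) and Tfrc by 1.07 (SE 0.16, adjusted p = 0.00245) between the tissues. The difference was not past the threshold for Foxo1 (-0.68, adjusted p = 0.0513) or Angptl8 (2.76, adjusted p = 0.0687), and Pck1 was at 0 to 2.34 normalized reads in the 6 brain libraries.

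**Figure D5:**
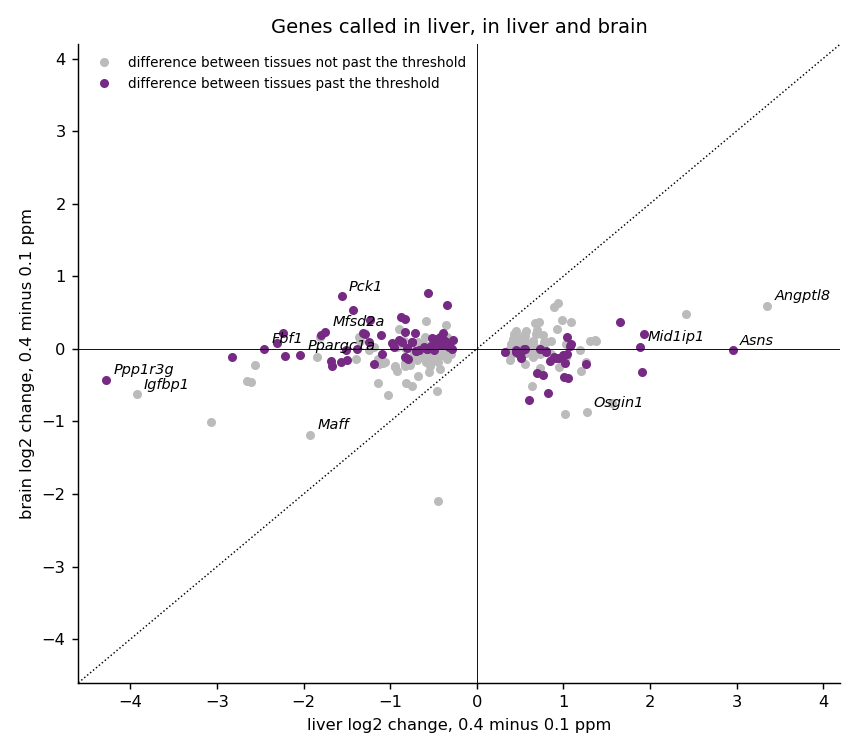
Log2 change, 0.4 minus 0.1 ppm, in liver on the x axis and in brain on the y axis, for the 268 genes called in liver and tested in both tissues. Purple points are the 95 whose difference between tissues passed the threshold, grey points the others, and the dotted line marks equal change. Most points lie near 0 in brain.

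The authors' deposited table gives a p-value per gene for these diets, below 0.05 for 2656 of 19607 genes with no adjustment for the number of genes. Recomputed from the normalized values with equal variances in both groups, all 19607 were matched within 0.0001. Among the 286 limma calls, 275 had a p in the authors' deposited table under 0.05, and 35 of all its genes stayed under 0.05 after Benjamini-Hochberg adjustment.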

How the data were processed

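RNA of whole liver and whole brain was sequenced from stranded total RNA libraries, per the labels' protocols. Per the submitters' processing notes, the build was mm10 and the tools included STAR 2.5.2b, Trimmomatic 0.33 and RSEM 1.3.0. The deposited table holds a normalized signal per gene, which the authors had divided by 1 factor per library, as the values show: multiplied back, 525456 of 525456 values (100%) lay within 0.01 of a whole read. Such scaling sets the balance of higher and lower genes. The table also holds other values, the authors' p-values, deposited per gene and diet pair. No column of values was left unmapped.

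For liver, log2(value + 1) was tested with limma 3.58.1 in R 4.3.3, with variances following the mean, in 1 fit of 12 libraries and 4 diets, on genes that reached 1 in 3 or more of the 6 libraries, with Benjamini-Hochberg adjustment and a threshold of 0.05. Fold changes on this scale understate those of low genes. The liver minus brain difference was an interaction over 24 libraries. Alternatives were a pseudocount of 0.1, a stricter filter at 4 or none, robust moderation, a fit of the 6 libraries alone, variances not following the mean, quantile normalization, a threshold of 0.1, edgeR 4.0.16 (quasi-likelihood, TMM) and DESeq2 1.42.0 on the recovered reads, and leaving out each library.

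The comparison, the 51 gene lists and the tests were chosen with earlier results of these data known. The rule for named genes took up to 15 each way with the largest change among called, non-overlapping genes with a group mean of at least 50, up to 6 called members of each list or else the smallest p, selenoproteins, clock genes, and a fixed set with Pck1, G6pc, Ppargc1a, Srebf1, Fasn, Igfbp1 and Fgf21. Predicted loci were counted but not named. Results of some genes chosen this way were left out of the text. Of the 18004 genes, 17957 were matched to GENCODE M21, and 16 symbols in the table were not unique. Values of H2-Bl, the Saa genes and the Ifit genes are uncertain, since near-identical copies can share their reads. In promoters, 11 motifs were searched on both strands, 1 of them added after the sequences were read. Counting error alone is covered by the 3-read limits.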

Additional observations from a re-analysis of the deposited data

Results flagged for a closer look

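The change between 0.4 and 0.1 ppm differed between liver and brain for 34 of the genes described or listed for liver, by a limma test of that difference over the 24 libraries (adjusted p under 0.05 over 16982 genes). Each value is the log2 change, 0.4 minus 0.1 ppm, in liver minus that in brain. All 34 were taken from genes already called in liver, and the difference contains that liver change, so it is not independent of the call. The difference was negative for 21 genes: Ppp1r3g (-3.86), Fbf1 (-2.45), Pck1 (-2.28), Dusp8 (-2.11), Mfsd2a (-1.99), Hmcn2 (-1.98), Ppargc1a (-1.95), Slc38a2 (-1.63), Slc7a2 (-1.50), Fads3 (-1.45), Rgs4 (-1.38), Iigp1 (-1.33), Blm (-1.33), Lpin2 (-1.33), Ppm1k (-0.72), Mknk2 (-0.65), Azin1 (-0.57), Pcmtd2 (-0.57), Calcoco1 (-0.57), Pank1 (-0.53) and Fitm2 (-0.50). It was positive for 13 genes: Asns (2.98), Mid1ip1 (1.86), Klhdc8a (1.73), Id2 (1.48), Cdh1 (1.31), Inhba (1.29), Shroom1 (1.11), Tfrc (1.07), Slc16a6 (1.04), Fasn (1.02), S1pr1 (1.005), Pde4a (0.89) and Irgq (0.73). The liver and brain libraries cannot be matched by animal from their columns, and Pck1 was at 0 to 2.34 normalized reads in the brain libraries, so that its brain change rests on very few reads. Groups of 3 libraries were too small to test any single library as an outlier.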

How the results depend on the processing

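No paired analysis was possible because the columns carry no replicate number. The count of 286 called genes (107 higher, 179 lower) moved with several settings. It was 623 (231 higher, 392 lower) in a fit of the 6 libraries compared alone, 43 (19 and 24) with no mean-variance trend, 626 (260 and 366) with DESeq2 and 691 (283 and 408) at a threshold of 0.1. It was 289 with edgeR, and between 254 and 335 under the other filters, the smaller pseudocount, quantile normalization and robust moderation. With 1 liver library left out it ran from 44 (without 0.4 ppm library b) to 524 (without 0 ppm library c), with 15 to 212 higher and 28 to 312 lower. Of the 286 genes, 276 stayed called in the fit of the 6 libraries, 35 with no trend, 262 with edgeR, 280 with DESeq2 and 44 without 0.4 ppm library b, and 23 were called under each of the 12 removals and each of 9 other alternatives. The liver minus brain count of 134 ran from 63 (without brain 0.4 ppm library b or brain 0.1 ppm library a) to 185 (without liver 0.1 ppm library c) with 1 library left out. It fell to between 63 and 87 without any 1 of the 6 brain libraries, and was 84 without liver 0.4 ppm library b, 80 without c, 86 without liver 0.1 ppm library a and 89 without b. Of 155 named genes, 13 changed sign in some setting, none of them called. With 1 library left out the log2 change ran from -0.084 to 0.52 for Arntl2, -0.0079 to 0.64 for Cyp7a1, -0.012 to 0.22 for Cys1, -1.02 to 0.62 for Dio3, -0.052 to 0.14 for Fbp1, -1.13 to 0.25 for Fgf21, -0.017 to 0.081 for Gpx1, -0.0022 to 0.031 for Gpx4, -0.063 to 0.32 for Nfil3, -0.22 to 0.022 for Per3, -0.037 to 0.050 for Selenof and -0.14 to 0.18 for Selenon. Selenof was at 0.047 with quantile normalization, 0.013 with edgeR and 0.0094 with DESeq2, and Selenot at 0.029 with quantile normalization. The cause of these shifts was not tested. With 3 libraries a group, an exact permutation test of a single gene cannot go below p = 0.1, so the calls rest on a spread shared across genes and on the 12 libraries.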
